A study of Homo sapiens with 12 samples.

Results

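The proteasome degrades proteins that carry ubiquitin chains. Its 20S core is a barrel of outer α rings, which gate the entry, and inner β rings, in which PSMB5, PSMB6 and PSMB7 cut the substrate. A 19S cap sits on the barrel: its base holds a ring of ATPases that unfold the substrate, and its lid holds PSMD14, the enzyme that removes the ubiquitin chain. Cytokines can replace the catalytic subunits by inducible ones, PSMB8 for PSMB5 and PSMB10 for PSMB7, which gives the immunoproteasome. Proteasomes also degrade IκBα once it is phosphorylated and ubiquitinated, and so release NF-κB downstream of the TNF receptor.

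The genes described here are the proteasome genes whose symbols begin with PSMA, PSMB, PSMC or PSMD followed by a number, with 1 such gene left out by the rule. They needed a mean over the 4 group means of at least 10 normalized reads. This gave 36 of the 26485 genes in the tables. PSMA8 and PSMB11, the forms of testis and thymus, were listed at 0 in every group and did not reach the minimum. By position in the complex, 7 members are α subunits (PSMA1 to PSMA7), 7 are constitutive β subunits (PSMB1 to PSMB7) and 2 are inducible β subunits (PSMB8 and PSMB10). Another 6 are ATPases (PSMC1 to PSMC6), 3 are other base subunits (PSMD1, PSMD2 and PSMD4) and 8 are lid subunits (PSMD3, PSMD6, PSMD7, PSMD8, PSMD11, PSMD12, PSMD13 and PSMD14). The symbol pattern also takes in PSMD5, PSMD9 and PSMD10, 3 chaperones that bind the base during assembly and are absent from the finished particle.

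HT-29 is an established line from a human colon adenocarcinoma, and every group was treated for 8 h. The DMSO group received the solvent alone, and the TNF-α group received TNF-α at 10 ng/ml. The TSZ group received TNF-α at 10 ng/ml, SM-164 at 50 nM, a Smac mimetic that antagonizes IAP proteins, and the caspase inhibitor zVAD at 20 μM, a mixture under which these cells die by necroptosis. The TSZ+Nec-1s group received the same mixture with Nec-1s at 10 μM, an inhibitor of the RIPK1 kinase. Polyadenylated RNA was sequenced in 3 libraries per group, 12 in all, and nothing in the labels or methods ties them to separate cultures, so p-values measure the spread between these libraries, which may be technical. The deposited means of each group were resolved into reads per library, and libraries are named a, b and c within a group. These letters pair nothing between groups. The estimated depth was 8781228 to 12730954 reads per library.

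Of 10 colon epithelium markers, 8 had a mean of at least 10, and CDX1 and CDX2 did not. The summed level of the 8 markers with recovered reads (without KRT8 and KRT18) was 40234.4 to 41912.4 normalized reads in TSZ libraries and 20802.2 to 24470.2 in the other libraries. Of 6 leukocyte markers, 3 had a mean of at least 10 (CD14, LYZ and ITGAM), PTPRC and CD3E were listed at 0, and the sum was 19319.7 to 20755.1 in TSZ and 14637.7 to 16021.6 elsewhere. Of 6 fibroblast and endothelium markers, 3 had a mean of at least 10 (COL1A1, COL1A2 and PECAM1), and the list summed to 209.9 to 483.7 in TSZ and 41.9 to 196.6 elsewhere. The libraries come from HT-29 cells alone, so the leukocyte, fibroblast and endothelium lists describe genes of this line and not other cell types. The part of these lists in the results was not tested. In bulk RNA a change in the share of expressing cells cannot be told apart from a change in RNA per cell.

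Promoters were read next, because the largest changes below fell on the inducible subunits, on PSMB4 and on PSMD5. RefSeq (GRCh38.p14) gave a promoter window for 31 of the 36 members, and the 250 bases before the transcription start were searched on both strands. The interferon-stimulated response element, searched as GAAA and GAAA with any 2 bases between them, was found in 2 of 31 members, PSMB10 and PSMB4 (6.45% against 3.02% of 35116 windows). The core of the antioxidant response element, spelled TGACNNNGC, through which NFE2L1 raises proteasome genes, was found in 5 of 31 members (PSMB3, PSMD3, PSMD5, PSMD9 and PSMD12; 16.1% against 10.9% of all windows). Capitals mark these matches in the 3 windows shown, which end 11 (PSMB10), 13 (PSMB4) and 29 (PSMD5) bases before the start. PSMB10 is shown at chr16:67936862-67937100 on the minus strand, PSMB4 at chr1:151399323-151399559 on the plus strand and PSMD5 at chr9:120842952-120843172 on the minus strand.
PSMB10: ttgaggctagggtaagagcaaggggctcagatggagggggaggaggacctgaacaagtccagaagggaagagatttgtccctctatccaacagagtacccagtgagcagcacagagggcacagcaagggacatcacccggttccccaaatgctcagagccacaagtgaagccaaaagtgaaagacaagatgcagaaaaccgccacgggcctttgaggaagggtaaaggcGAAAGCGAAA
PSMB4: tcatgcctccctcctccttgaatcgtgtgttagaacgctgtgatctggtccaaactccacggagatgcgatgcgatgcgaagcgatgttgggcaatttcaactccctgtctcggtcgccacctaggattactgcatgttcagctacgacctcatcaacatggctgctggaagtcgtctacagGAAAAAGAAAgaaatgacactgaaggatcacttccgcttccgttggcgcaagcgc
PSMD5: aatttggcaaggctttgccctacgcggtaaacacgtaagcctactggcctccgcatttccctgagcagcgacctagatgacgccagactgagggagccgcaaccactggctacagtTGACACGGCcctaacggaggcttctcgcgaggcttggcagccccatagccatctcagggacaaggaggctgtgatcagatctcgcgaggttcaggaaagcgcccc

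The interferon-type element lay at bases 230 to 239 of the PSMB10 window and at bases 183 to 192 of the PSMB4 window, and the antioxidant core at bases 117 to 125 of the PSMD5 window. General promoter elements were also searched. GGGCGG, the GC box, was in 61.3% of the members' windows and 42.6% of all windows, CCAAT in 41.9% and 32% and the ETS site CCGGAAG in 22.6% and 8.52%. No member window held the heat shock spelling GAANNTTC or the NF-κB site, which were in 5.78% and 5.21% of all windows. No match to any motif searched was found for the inducible subunit PSMB8. A match in these windows is a description of the letters and was not tied to binding. The windows shown were picked by the changes below, and a link to those changes was not tested.

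Among the members, levels were compared per length, as normalized reads per kilobase of the MANE Select transcript in DMSO. The α subunit PSMA7 (4581) and the β subunit PSMB3 (4274) stood highest, followed by the lid subunit PSMD8 (2415), PSMB4 (2277), PSMB1 (2015), PSMA1 (1984) and the ATPase PSMC3 (1818). Class medians were 975 for α, 1360 for constitutive β, 894 for ATPase, 1360 for other base and 1140 for lid subunits. The chaperones had a median of 196, and the inducible subunits were at 455.3 (PSMB10) and 73.57 (PSMB8). Within the lid the level per kilobase ran from 279 in PSMD12 to 2415 in PSMD8, although the finished particle holds these subunits in equal numbers.

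PSMC1, the ATPase Rpt2, had the lowest level, 8.122 normalized reads per kilobase, and its values are uncertain. Its transcript shares 83.2% of its exon bases with exons of the neighbouring gene NRDE2. It also has 13 named pseudogenes, and 31.7% of its 100-base windows occur elsewhere in the genome. The authors counted with the strict intersection mode, in which a read that lies wholly within more than 1 gene is left out, and did not use strand. Smaller shares of windows occur elsewhere for PSMC6 (9.98%), PSMA6 (7.47%), PSMD4 (6.07%) and PSMD2 (3.09%). PSMA1, PSMA2, PSMA6, PSMB10, PSMD7 and PSMD9 overlap unnamed loci of the GENCODE annotation over 28.8% to 100% of their exon bases, and PSMC5 overlaps FTSJ3 over 13.7%. Whether the annotation the authors counted on held these loci is not given, so these levels are uncertain as well. PSMA2, overlapped over 100%, kept 1112 to 2452 normalized reads per library, so that overlap did not remove its reads. Differences between groups within a gene were fitted regardless.

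The libraries DMSO b, TNF-α a and TSZ a stood apart from the others of their groups in base composition. Among the 36 members, the deviation of a library from its group mean correlated with the GC content of the transcript at Spearman's rho of -0.81 in DMSO b, -0.84 in TNF-α a and -0.85 in TSZ a. It ran from 0.50 to 0.79 in the other libraries of these groups and from -0.28 to 0.42 in TSZ+Nec-1s. Each deviation is taken from the mean of its own group, so a shift shared by all libraries of a group does not show. The points share library and depth, so these are descriptions over n = 36 genes. PSMD12, the lid scaffold Rpn5 and a transcript of 37.5% GC, shows the size: it had 864.4, 2159 and 622.1 normalized reads in DMSO a, b and c. It had 1515, 874.8 and 673.6 in TNF-α, 2148, 1082 and 1162 in TSZ, and 1811, 1735 and 1832 in TSZ+Nec-1s. Each TSZ+Nec-1s library thus lay above every library of the other groups except DMSO b and TSZ a. Whether the TSZ+Nec-1s libraries share the composition of the libraries set apart was not tested. The TSZ vs DMSO log2 fold change of PSMD12 was 0.41 ± 0.40 (SE) and did not pass the test (adjusted p = 0.421). Transcript GC also differed by class, with medians of 41.4% in α, 52% in β, 50.4% in ATPase and 45.7% in lid subunits. Counts of called members that moved without these libraries, or after removing each library's trend with GC, are given beside the first counts.

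**Figure D1:**
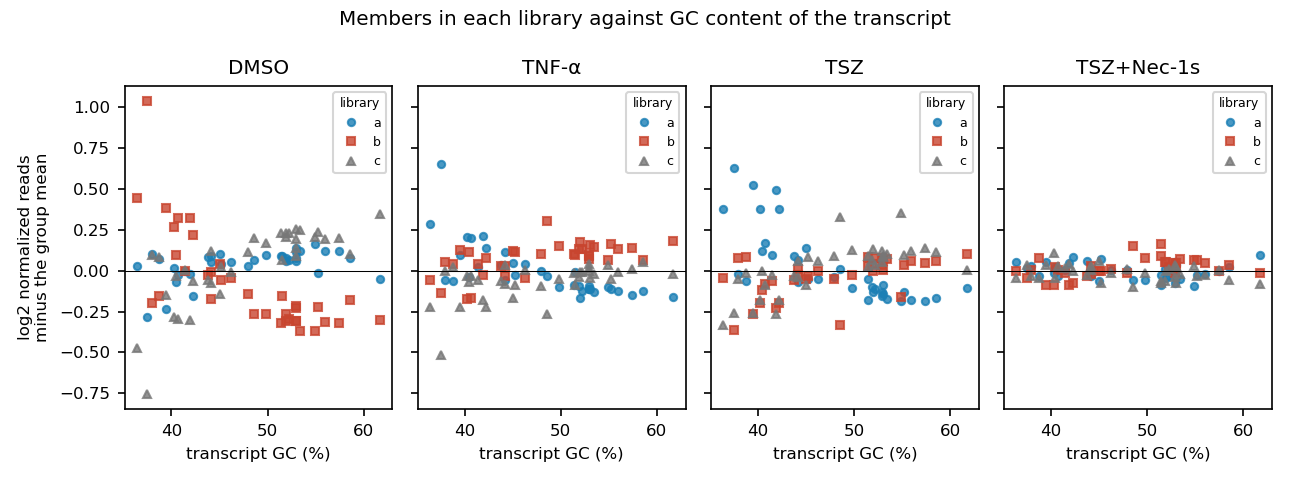
Each point is 1 of the 36 members in 1 library: the x axis gives the GC content of its transcript (%) and the y axis its log2 normalized reads minus the mean of its group, with libraries a, b and c of each group in separate symbols. DMSO b, TNF-α a and TSZ a slope downwards (rho of -0.81, -0.84 and -0.85), and the TSZ+Nec-1s libraries lie close to their own group mean. A shift shared by all libraries of a group would not show.

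To see what TNF-α alone did to these genes, the TNF-α and DMSO groups were compared. Both inducible subunits rose, and no constitutive subunit passed the test on the values as scaled by the authors. limma called 2 of 36 members higher, against 3.13% of all 11740 genes tested, and 0 lower, against 1.07%. At an unadjusted p under 0.05, 9 members were higher, against 9.24% of all genes, and 0 lower, against 5.86%. Small uncalled shifts were common: 29 of 36 members lay above the median of all genes. The constitutive core median lay 0.20 above it (12 of 14 members), the ATPase median 0.17 (6 of 6) and the lid median 0.07 (6 of 8). The chaperone median lay 0.14 below it. These class values were not tested. After removing each library's trend with GC 6 members were called higher, and without DMSO b, TNF-α a and TSZ a the count was also 6, so that constitutive subunits passed under both settings. Where only the 2 groups were fitted, 1 was called.

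PSMB8, the inducible β5 subunit, had 90.94, 63.07 and 94.06 normalized reads in DMSO, 156, 175.1 and 171.1 in TNF-α, 116.5, 118.5 and 169 in TSZ, and 189, 211 and 206.2 in TSZ+Nec-1s. No DMSO library reached any treated library, and the lowest TSZ+Nec-1s library lay above the highest of every other group. The log2 fold change was 1.03 ± 0.18 (SE, adjusted p = 0.00507) in TNF-α and 0.69 ± 0.19 (adjusted p = 0.0092) in TSZ, each against DMSO. With Nec-1s added it was 1.30 ± 0.18 against DMSO (adjusted p = 0.000321) and 0.60 ± 0.17 against TSZ (adjusted p = 0.0117). TSZ and TNF-α differed by -0.34 (95% interval -0.71 to 0.04, adjusted p = 0.135), which did not pass the test.

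PSMB10, the inducible β2 subunit, had 422.3, 355.3 and 556.9 normalized reads in DMSO, 629.8, 797.8 and 694.6 in TNF-α, 647.9, 747.1 and 697.4 in TSZ, and 830.3, 769.2 and 736.4 in TSZ+Nec-1s. The treated groups overlapped one another and lay above DMSO. The log2 fold change against DMSO was 0.69 ± 0.15 (adjusted p = 0.0177) in TNF-α, 0.67 ± 0.15 (adjusted p = 0.00239) in TSZ and 0.83 ± 0.15 (adjusted p = 0.00209) in TSZ+Nec-1s. The TNF-α call for PSMB10 was lost without DMSO a (0.66), without TNF-α b (0.60), without TNF-α c (0.70), and where only the 2 groups were fitted (0.69). Scaled to total reads, the TSZ calls of PSMB8 (0.28) and PSMB10 (0.26) against DMSO were lost. The intervals of TSZ against TNF-α for PSMB10 (-0.33 to 0.30) and of TSZ+Nec-1s against TSZ (-0.15 to 0.47) both included 0.

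The share of inducible to constitutive transcript was taken within each library, per kilobase, so that the scaling between libraries cancels. PSMB8 stood at 5.91%, 5.3% and 6.33% of PSMB5 in DMSO, 10.4%, 10.3% and 10.7% in TNF-α, 8.53%, 7.55% and 10.6% in TSZ, and 14.1%, 15.2% and 14.8% in TSZ+Nec-1s. This share was 2.52 times the DMSO mean in TSZ+Nec-1s, 1.79 times in TNF-α and 1.52 times in TSZ. PSMB10 stood at 33.3% ± 3.92 (SD, n = 3) of PSMB7 in DMSO, 43.4% ± 1.57 in TNF-α, 39.4% ± 3.45 in TSZ and 55.5% ± 5.26 in TSZ+Nec-1s. For PSMB10 the DMSO range (29.9% to 37.6%) overlapped that of TSZ (36% to 42.9%), since PSMB7 also rose in TSZ. Both inducible shares were highest in TSZ+Nec-1s, without overlap with another group. Groups of 3 cannot give an exact permutation p under 0.1, so no test of these shares is given.

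**Figure D2:**
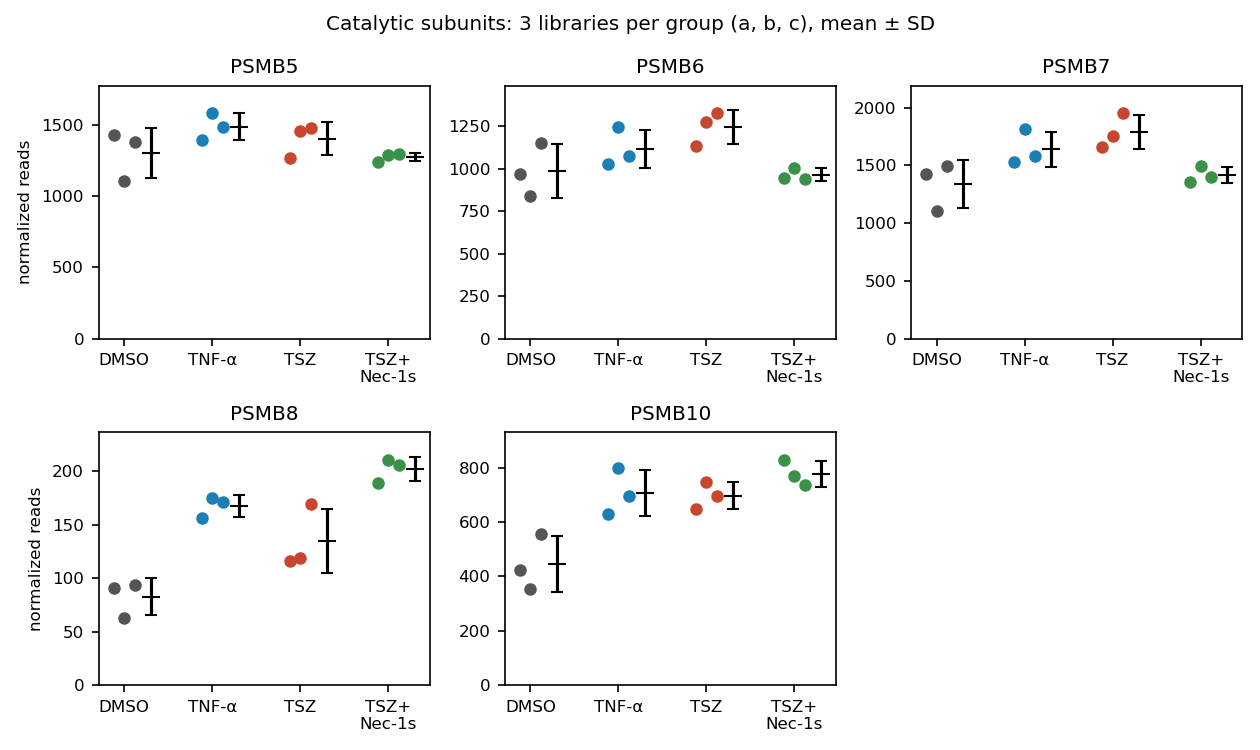
Normalized reads (y axes, from 0) of the 5 catalytic subunits in the 3 libraries of each group (points a, b, c from left to right), with mean ± SD in black. PSMB8 and PSMB10 are lowest in DMSO and highest in TSZ+Nec-1s by mean, whereas PSMB6 and PSMB7 have their highest means in TSZ.

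The comparison of TSZ with DMSO asks what the necroptotic mixture did. On the authors' scaling most higher calls fell on core subunits. limma called 11 of 36 members higher, against 26% of all genes tested, and 2 lower, against 24.2%. The members' count of higher calls was thus near the share of all genes, and their count of lower calls was below it. The calls were uneven over the complex: 3 of 7 α, 5 of 7 constitutive β and both inducible subunits were higher, but 0 of 6 ATPases, 0 of 3 other base subunits and 1 of 8 lid subunits. At an unadjusted p under 0.05 these 3 cap classes had 0, 0 and 2 members higher, where 28.9% of all genes were. PSMC2 among the ATPases and the chaperone PSMD5 were the 2 lower members.

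Directions in TSZ depend on the scaling between libraries. With libraries scaled to total reads, the median of all genes (log2 fold change) moved from -0.02 to -0.43, and the members had 0 higher and 16 lower calls, while the upper quartile moved that median to -0.14 and gave 6 higher and 4 lower. A change of scaling shifts all genes by nearly the same amount, so distances from the all-gene median hold by construction. The median of the 14 constitutive core subunits lay 0.37 above the median of all genes, with 14 of 14 members above it. The lid median lay 0.14 above it with 6 of 8 members, and the ATPase median 0.06 or 0.07 below it with 2 of 6 members above. Changes given here are on the authors' scaling and are to be read relative to the all-gene median. The count of higher members also changed to 18 after removing each library's trend with GC, to 17 without DMSO b, TNF-α a and TSZ a, to 7 without TSZ b and to 5 where only the 2 groups were fitted. The count of lower members rose to 6 without DMSO b, and fell to 1 without any of DMSO a, DMSO c, TSZ a or TSZ c.

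**Figure D3:**
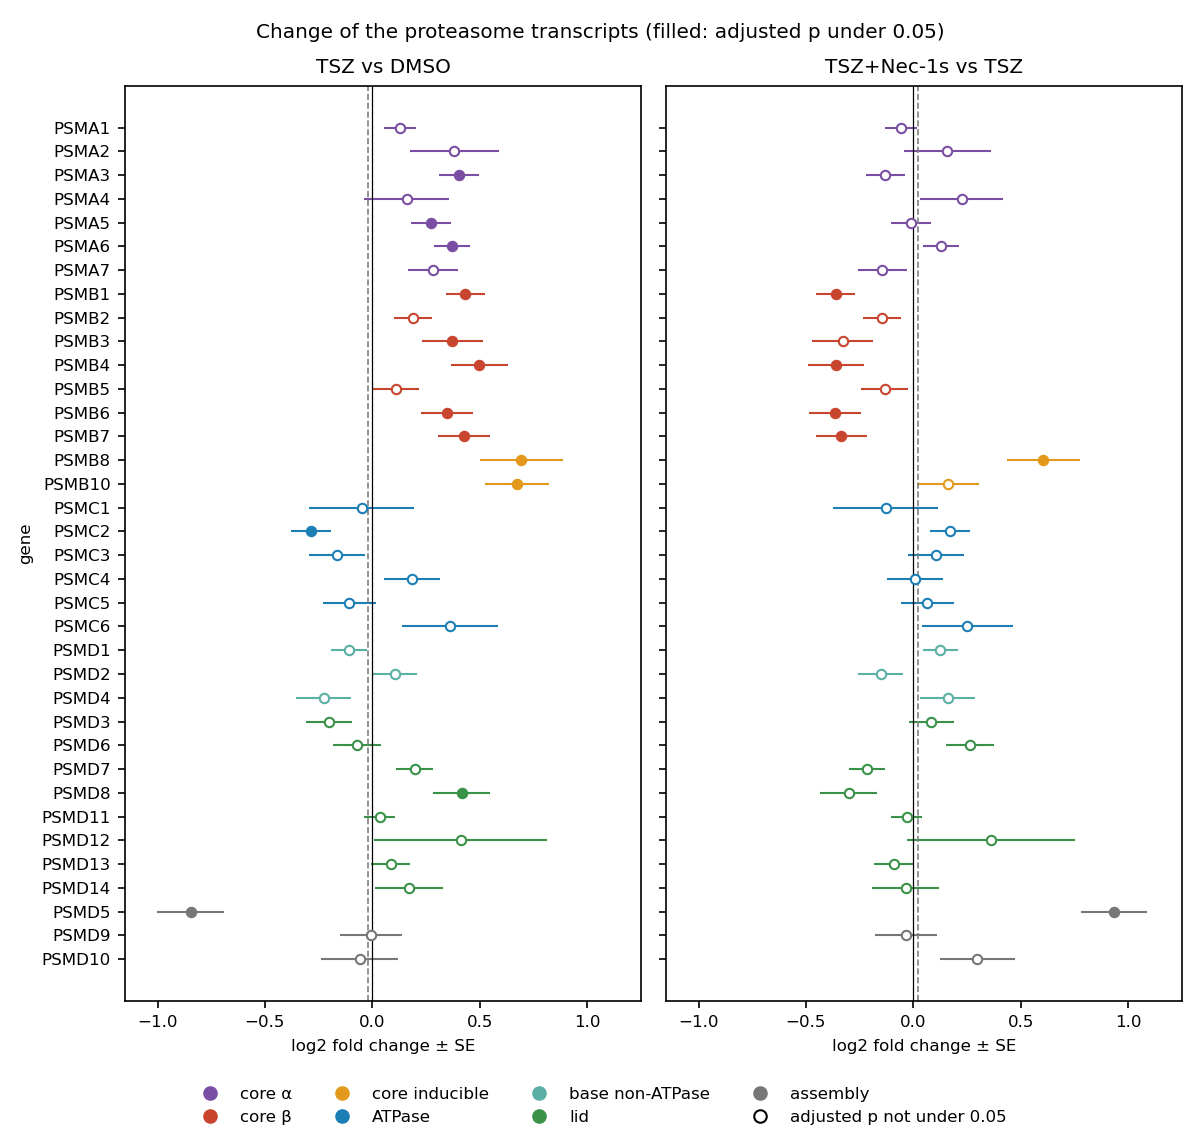
log2 fold change ± SE (x axis) of each of the 36 members, colored by class, for TSZ vs DMSO and for TSZ+Nec-1s vs TSZ; filled points have an adjusted p under 0.05 and the dashed line is the median of all genes. Each α and β subunit lies above the all-gene median in TSZ vs DMSO, and the constitutive β subunits lie below it in TSZ+Nec-1s vs TSZ; under scaling to total reads the medians of these β subunits are -0.04 and -0.00, with the all-gene medians at -0.43 and 0.35.

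Among the β subunits, PSMB4 (subunit β7) had 2177, 1669 and 2425 normalized reads in DMSO, 2257, 2856 and 2514 in TNF-α, 2660, 2916 and 3199 in TSZ, and 2199, 2353 and 2267 in TSZ+Nec-1s. Its TSZ libraries lay above all DMSO and TSZ+Nec-1s libraries and overlapped those of TNF-α. The log2 fold change in TSZ was 0.50 ± 0.13 (adjusted p = 0.00753), the largest of the constitutive subunits. PSMB1, subunit β6, rose by 0.43 ± 0.09 (adjusted p = 0.00148), with 2335 to 2569 normalized reads in TSZ against 1624 to 1938 in DMSO.

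Of the 3 constitutive catalytic subunits, 2 passed the test. The caspase-like PSMB6 had 967.9, 837.7 and 1152 normalized reads in DMSO, 1031, 1247 and 1074 in TNF-α, 1135, 1275 and 1329 in TSZ, and 945.8, 1008 and 941.6 in TSZ+Nec-1s. The trypsin-like PSMB7 had 1421, 1105 and 1491 in DMSO, 1525, 1811 and 1580 in TNF-α, 1660, 1755 and 1952 in TSZ, and 1358, 1490 and 1398 in TSZ+Nec-1s. In TSZ, PSMB6 rose by 0.35 ± 0.12 (adjusted p = 0.0305) although 1 DMSO library lay inside the TSZ range, and PSMB7 by 0.43 ± 0.12 (adjusted p = 0.0101) with ranges apart. The chymotrypsin-like PSMB5, the target of proteasome inhibitors in the clinic, had 1429, 1105 and 1381 normalized reads in DMSO, 1396, 1584 and 1487 in TNF-α, 1269, 1457 and 1480 in TSZ, and 1242, 1288 and 1294 in TSZ+Nec-1s. Its TSZ and DMSO libraries overlapped, and TSZ vs DMSO gave 0.11 (95% interval -0.13 to 0.35, adjusted p = 0.438). Whether PSMB5 differs from PSMB6 and PSMB7 was not tested.

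Among the remaining β subunits, PSMB3 (β3) rose by 0.37 ± 0.14 (adjusted p = 0.0442), whereas PSMB2 (β4) had 0.19 ± 0.09 (adjusted p = 0.0884). The calls for PSMB3 and PSMB6 were each lost without DMSO a (0.43 and 0.34), without DMSO b (0.19 and 0.24), without TSZ b (0.34 and 0.33) and without TSZ c (0.32 and 0.30). On the total-read scale PSMB3 and PSMB6 took the opposite sign, -0.04 and -0.07, and PSMB1 (0.02), PSMB4 (0.08) and PSMB7 (0.01) did not pass. Where only the 2 groups were fitted, the calls for PSMB3, PSMB6, PSMB7 and PSMB8 in TSZ were lost, with the same fold changes. The upper quartile ended those of PSMB3 (0.25), PSMB6 (0.23) and PSMB7 (0.30).

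In the α ring, PSMA3 (subunit α7) had 1090, 1225 and 1120 normalized reads in DMSO, 1259, 1400 and 1232 in TNF-α, 1644, 1396 and 1510 in TSZ, and 1402, 1406 and 1342 in TSZ+Nec-1s. Its DMSO libraries lay below all treated libraries, and TSZ gave 0.40 ± 0.09 (adjusted p = 0.00291). PSMA6 (α1) rose by 0.37 ± 0.09 (adjusted p = 0.00289) and PSMA5 (α5) by 0.27 ± 0.09 (adjusted p = 0.0279), the latter not passing without DMSO b (0.17), without TSZ b (0.23), with the GC trend removed (0.26), under the upper quartile (0.15) or where only the 2 groups were fitted (0.27). PSMA1 (α6) moved least, with 2368, 2364 and 2380 normalized reads in DMSO, 2543, 2580 and 2408 in TNF-α, 2767, 2474 and 2537 in TSZ, and 2493, 2464 and 2514 in TSZ+Nec-1s. Its value of 0.13 ± 0.08 did not pass (adjusted p = 0.181). PSMA2 (0.38 ± 0.21), PSMA4 (0.16 ± 0.20) and PSMA7 (0.28 ± 0.12) also stayed above the threshold. Under scaling to total reads PSMA3, PSMA5 and PSMA6 took the opposite sign, at -0.01, -0.14 and -0.04.

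The ATPases did not follow the core: their median was -0.08, against 0.36 for the 14 constitutive core subunits and -0.02 for all genes. Of the 6 ATPases, 2 had a positive and 4 a negative value. PSMC2, the ATPase Rpt1, had 1606, 1373 and 1619 normalized reads in DMSO, 1649, 1770 and 1753 in TNF-α, 1200, 1327 and 1240 in TSZ, and 1380, 1488 and 1369 in TSZ+Nec-1s. Each TSZ library lay below every library of the other groups. It fell by 0.29 ± 0.09 on the log2 scale (adjusted p = 0.0207), a call that was lost without DMSO a (-0.25), without DMSO c (-0.24), without TSZ a (-0.25), without TSZ c (-0.28), with the GC trend removed (-0.28) and where only the 2 groups were fitted (-0.28). PSMC6 (Rpt4) had the highest value of the class, 0.36 ± 0.22 (adjusted p = 0.198), from 307, 409.9 and 217 normalized reads in DMSO, 395.2, 311.8 and 278.2 in TNF-α, 501.4, 374.7 and 307 in TSZ, and 476.8, 459.3 and 445.7 in TSZ+Nec-1s. Its transcript is the poorest in GC of the members, at 36.4%, and its DMSO and TSZ ranges overlapped widely. PSMC3 (-0.16 ± 0.13), PSMC5 (-0.11 ± 0.12), PSMC4 (0.18 ± 0.13) and PSMC1 (-0.05 ± 0.24) did not pass the test.

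In the base beside the ATPases, PSMD4 (Rpn10, a ubiquitin receptor) had the lowest value and PSMD2 (Rpn1, a scaffold that binds ubiquitin carriers) the highest. PSMD4 had 1918, 1435 and 2034 normalized reads in DMSO, 1762, 2118 and 1844 in TNF-α, 1426, 1519 and 1615 in TSZ, and 1733, 1748 and 1608 in TSZ+Nec-1s. PSMD2 had 4542, 3710 and 4754 in DMSO, 4509, 5200 and 4931 in TNF-α, 4231, 4889 and 4820 in TSZ, and 4319, 4132 and 4068 in TSZ+Nec-1s. For both, the TSZ and DMSO libraries overlapped, at -0.23 ± 0.13 and 0.10 ± 0.10 (adjusted p = 0.155 and 0.428). The scaffold PSMD1 gave -0.11 ± 0.08.

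Within the lid, PSMD8 (Rpn12, the last subunit to join) had 3936, 2905 and 4156 normalized reads in DMSO, 3879, 4736 and 4335 in TNF-α, 4251, 5000 and 5317 in TSZ, and 3923, 3911 and 3930 in TSZ+Nec-1s. Each of its TSZ libraries lay above each DMSO library, and it rose by 0.42 ± 0.13 (adjusted p = 0.0191). The call was lost without TSZ b (0.39), without TSZ c (0.35), under the upper quartile (0.29) and where only the 2 groups were fitted (0.42), and scaling to total reads gave 0.00. PSMD14, the deubiquitinase, had 1041, 1349 and 1107 normalized reads in DMSO, 1267, 1215 and 986.8 in TNF-α, 1691, 1135 and 1148 in TSZ, and 1343, 1204 and 1267 in TSZ+Nec-1s. Only TSZ a stood high, and TSZ vs DMSO gave 0.17 (95% interval -0.17 to 0.51, adjusted p = 0.395).

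PSMD3 (Rpn3) had the lowest value of the lid, from 2801, 2341 and 2853 normalized reads in DMSO, 2761, 3149 and 3118 in TNF-α, 2056, 2401 and 2496 in TSZ, and 2485, 2503 and 2349 in TSZ+Nec-1s. It did not pass against DMSO (-0.20 ± 0.11, adjusted p = 0.129), with DMSO b inside the TSZ range. PSMD7 (0.20 ± 0.09), PSMD11 (0.03 ± 0.07), PSMD13 (0.08 ± 0.09) and PSMD6 (-0.07 ± 0.11) did not pass either.

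The 3 assembly chaperones parted. PSMD5, which holds ATPases of the base before the particle is complete, had 815.8, 1042 and 678.7 normalized reads in DMSO, 926, 716 and 786.7 in TNF-α, 520.3, 437.9 and 434.4 in TSZ, and 863.5, 888.1 and 904.4 in TSZ+Nec-1s. The TSZ libraries lay below all others, which overlapped. PSMD5 fell by 0.85 ± 0.16 on the log2 scale against DMSO (adjusted p = 0.000582) and by 0.80 ± 0.15 against TNF-α (adjusted p = 0.00108), and was 0.93 ± 0.15 higher in TSZ+Nec-1s than in TSZ (adjusted p = 0.000381). These were the largest changes of any member in the TSZ comparisons with DMSO, TNF-α and TSZ+Nec-1s. They passed under each alternative setting run, scaling to total reads included. PSMD9 had 499.7, 376.3 and 550.5 normalized reads in DMSO, 397.1, 452.3 and 416.4 in TNF-α, 413.8, 496.6 and 498.7 in TSZ, and 430.2, 510.5 and 432.6 in TSZ+Nec-1s, and its value in TSZ vs DMSO was -0.01 ± 0.15. PSMD10 (gankyrin) gave -0.06 ± 0.18.

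**Figure D4:**
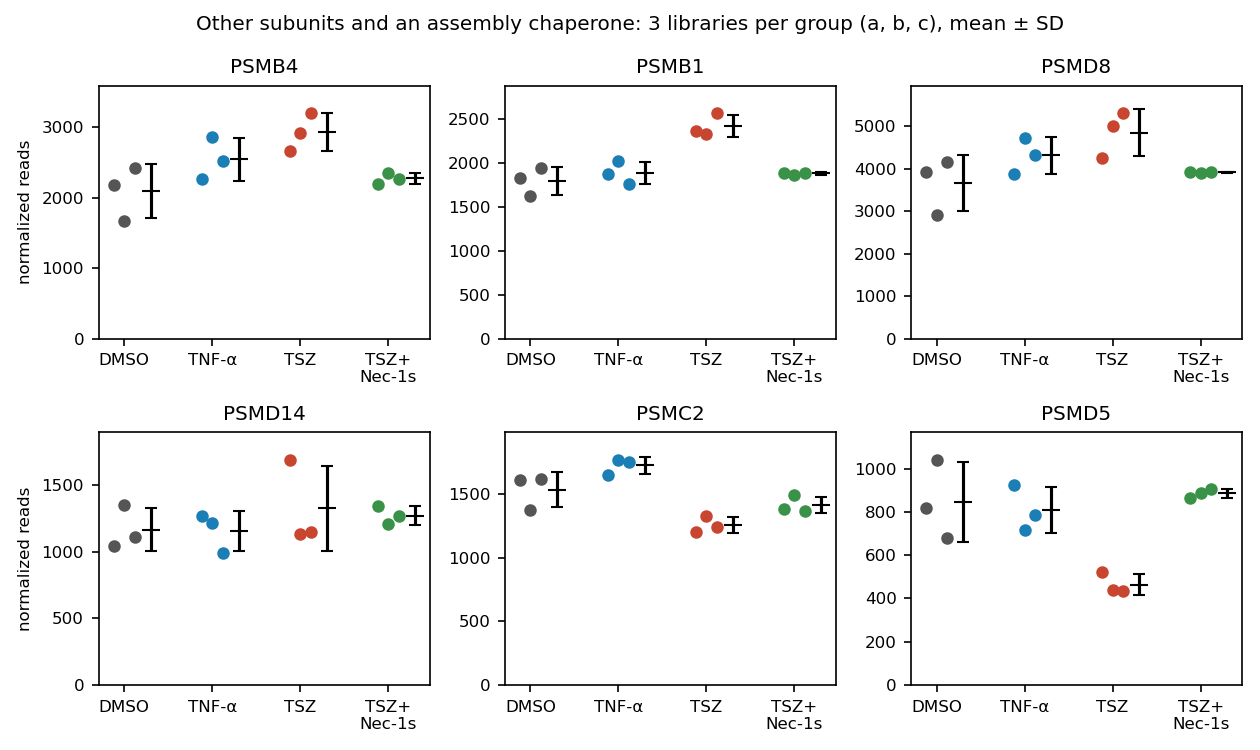
Normalized reads (y axes, from 0) of 6 further members in the 3 libraries of each group (points a, b, c from left to right), with mean ± SD in black. The TSZ libraries are highest for PSMB1 and lowest for PSMC2 and PSMD5, and for PSMD14 only 1 TSZ library stands apart.

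Core, ATPase and lid were compared with one another within each library, as the mean log2 value of one class minus that of another, relative to the DMSO mean, since the scaling between libraries cancels in this difference. Core over ATPase was -0.04, 0.05 and -0.01 in DMSO, -0.04, -0.04 and -0.02 in TNF-α, 0.37, 0.31 and 0.29 in TSZ, and 0.14, 0.07 and 0.13 in TSZ+Nec-1s. TSZ did not overlap with any other group, and TSZ+Nec-1s lay between TSZ and DMSO without overlap with either. Without PSMC1 the TSZ values were 0.37, 0.24 and 0.34, and with the GC trend removed 0.41, 0.32 and 0.31. With both changes TSZ (0.44, 0.25 and 0.35) still lay apart from the other groups. TSZ+Nec-1s (0.12, 0.06 and 0.08) then overlapped with DMSO (-0.06, 0.07 and -0.01), so its intermediate position depends on these choices.

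Core over lid was 0.02, -0.17 and 0.14 in DMSO, -0.03, 0.12 and 0.15 in TNF-α, 0.13, 0.21 and 0.21 in TSZ, and 0.03, 0.06 and 0.05 in TSZ+Nec-1s. Here TSZ overlapped with DMSO and TNF-α, and the low DMSO value belonged to the library DMSO b. Lid over ATPase was -0.06, 0.22 and -0.15 in DMSO, -0.01, -0.16 and -0.16 in TNF-α, 0.24, 0.10 and 0.08 in TSZ and 0.11, 0.01 and 0.08 in TSZ+Nec-1s, so that TSZ and DMSO overlapped. Of the 3 contrasts between core, ATPase and lid, core over ATPase thus separated TSZ from DMSO, and the contrasts with the lid did not. TSZ did lie apart from TSZ+Nec-1s in core over lid, and apart from TNF-α in lid over ATPase. No p is given for these class values, since the classes were chosen with results known.

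**Figure D5:**
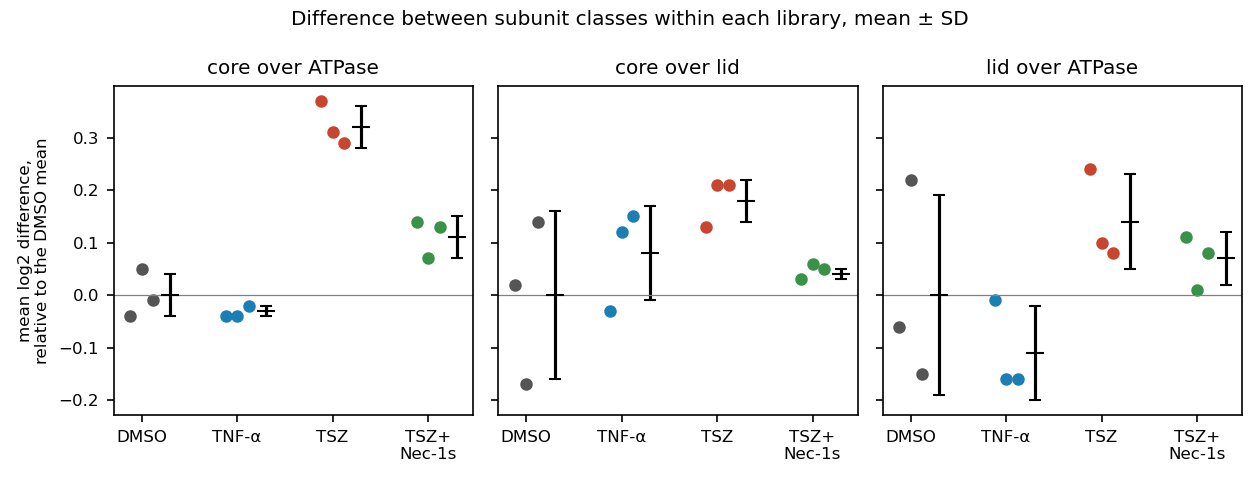
Difference between the mean log2 values of 2 classes within each library, relative to the DMSO mean (y axis, log2), for core over ATPase, core over lid and lid over ATPase, with points for libraries a, b and c and mean ± SD in black. Core over ATPase is 0.32 ± 0.04 in TSZ, 0.11 ± 0.04 in TSZ+Nec-1s and 0.00 ± 0.04 in DMSO, whereas the lid contrasts overlap between TSZ and DMSO.

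Against TNF-α, which shares the TSZ libraries with the previous comparison, TSZ gave 1 member higher, against 22.8% of all genes, and 4 lower, against 21.6%. PSMB1 was higher by 0.36 ± 0.09 (adjusted p = 0.00563). PSMC2 fell by 0.46 ± 0.09 (adjusted p = 0.00133), PSMD3 by 0.38 ± 0.11 (adjusted p = 0.0101) and the lid scaffold PSMD11 by 0.20 ± 0.07 (adjusted p = 0.041), beside PSMD5. The call for PSMD11 was lost without any 1 of TNF-α a, TNF-α b, TNF-α c, TSZ a or TSZ b (-0.17 to -0.22). The count of higher members was 2 without TNF-α b or without TSZ b, and 9 with the GC trend removed. Without DMSO b, TNF-α a and TSZ a, 5 members were higher and 8 lower, and under the upper quartile 0 and 7. Total-read scaling left 0 members higher and 22 lower, beside 1486 and 4971 of all genes, whose median was -0.33. The ATPase median was -0.26, the core median 0.14 and the lid median 0.07.

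Adding Nec-1s to TSZ asks which changes depend on the RIPK1 kinase. Relative to TSZ, 2 members were higher, PSMB8 and PSMD5, against 19.8% of all genes, and 4 were lower, against 22.7%. All 4 were β subunits: PSMB1 fell by 0.36 ± 0.09 (adjusted p = 0.00613), PSMB4 by 0.36 ± 0.13 (adjusted p = 0.0431), PSMB6 by 0.37 ± 0.12 (adjusted p = 0.0278) and PSMB7 by 0.34 ± 0.12 (adjusted p = 0.0377). The β median was -0.34, against -0.01 in the α ring, where 0 of 7 passed and 0 of 7 had an unadjusted p under 0.05. ATPases and lid subunits had 0 calls of 6 and of 8, with 0 and 3 members at an unadjusted p under 0.05. Of all genes, 24.3% were higher and 26% lower at that threshold. Without any 1 of TSZ b, TSZ c or a TSZ+Nec-1s library, 1 member was lower, and without TSZ a 7 were lower and 5 higher. PSMB8 lost its call without TSZ b (0.52), and 1 member was then higher. After removing each library's trend with GC 6 members were higher and 8 lower, and without DMSO b, TNF-α a and TSZ a the counts were 10 and 11. The latter setting keeps every TSZ+Nec-1s library, and these were high in low-GC PSMD12 as were the libraries left out. With it, a change with Nec-1s cannot be told apart from a difference in base composition. Under the upper quartile PSMB4, PSMB6 and PSMB7 lost their calls, and 1 member was lower. Fitting every gene with a read left 2 lower. Under total-read scaling 20 members were higher and 0 lower, beside 4937 and 1389 of all genes, whose median was 0.35. The β median lay 0.35 below the median of all genes, a distance that the scaling between libraries cannot change. It is not corrected for transcript GC, which differs between the rings (medians of 52% in β and 41.4% in α). The calls of PSMB1, PSMB4, PSMB6 and PSMB7 passed with the GC trend removed.

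Within libraries, core β over ATPase was 0.26, 0.39 and 0.41 in TSZ and -0.03, -0.03 and 0.00 in TSZ+Nec-1s, where DMSO ran from -0.10 to 0.09. Core β over core α was -0.23, 0.16 and 0.24 in TSZ and -0.33, -0.20 and -0.26 in TSZ+Nec-1s, a contrast in which DMSO itself ran from -0.29 to 0.21 as written and from -0.07 to 0.12 with the GC trend removed. With that trend removed core β over core α stood at 0.03 to 0.10 in TSZ and at -0.13 to -0.06 in TSZ+Nec-1s. The TSZ+Nec-1s mean moved from -0.26 to -0.10 and the TSZ mean from 0.06 to 0.07. The size of the contrast between the rings thus depends on the GC correction.

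TSZ+Nec-1s also kept members above DMSO. PSMB8, PSMB10 and PSMA6 were higher, 3 of 36 against 7.16% of all genes, and 0 were lower, against 5.74%. PSMA6 had 1056, 978.6 and 958.8 normalized reads in DMSO and 1471, 1382 and 1383 in TSZ+Nec-1s, a rise of 0.50 ± 0.08 (adjusted p = 0.00144). At an unadjusted p under 0.05, 7 members were higher, against 13.4% of all genes, and 0 lower, against 12.9%. The calls were 8 higher without DMSO b, 7 higher with the GC trend removed, and 12 higher and 6 lower without DMSO b, TNF-α a and TSZ a. Between TSZ+Nec-1s and TNF-α limma called 0 members higher, against 1.09% of all genes, and 0 lower, against 0.256%. At an unadjusted p under 0.05, 5 were higher and 4 lower, against 9.95% and 7.84% of all genes. With the GC trend removed 2 were called higher and 1 lower. Where only these 2 groups were fitted the calls were 6 higher and 8 lower, and without DMSO b, TNF-α a and TSZ a they were 8 higher and 15 lower. In this comparison and against DMSO, the counts without those libraries carry the limit given for TSZ+Nec-1s vs TSZ.

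The machinery around the particle was described from a list of 38 genes: transcription regulators, further subunits, chaperones, activators, associated enzymes, carriers of ubiquitinated proteins, unfoldases and ubiquitin genes. DDI1 was listed at 0, and 37 were tested. In TSZ vs DMSO 15 were higher and 4 lower, beside 26% and 24.2% of all genes, and in TNF-α vs DMSO 1 was higher, PSME2, beside 3.13%. On the total-read scale 6 were higher and 17 lower in TSZ vs DMSO.

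ZFAND5, which binds ubiquitin chains and stimulates the proteasome, had 1073, 1740 and 980.2 normalized reads in DMSO, 1418, 1220 and 1258 in TNF-α, 6685, 5247 and 4651 in TSZ, and 2100, 1782 and 1960 in TSZ+Nec-1s. The TSZ libraries stood far above all others, and ZFAND5 rose by 2.16 ± 0.19 (adjusted p = 8.13e-07). AKIRIN2, which carries proteasomes into the nucleus, rose by 1.69 ± 0.15 (adjusted p = 9.82e-07), from 176.5 to 257.5 normalized reads in DMSO to 613.5 to 743.8 in TSZ. ZFAND2A, an arsenite-inducible partner of the 19S cap, rose by 1.31 ± 0.18 (adjusted p = 4.39e-05). These 3 genes stayed higher when scaled to total reads, at 1.75, 1.28 and 0.90.

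Assembly factors moved in both directions. POMP, the chaperone that matures the β rings, rose by 0.83 ± 0.17 (adjusted p = 0.0014), with 2307, 3180 and 1976 normalized reads in DMSO, 2880, 2682 and 2004 in TNF-α, 5101, 4204 and 3815 in TSZ, and 3536, 3678 and 3694 in TSZ+Nec-1s. PAAF1, which binds ATPases of the base, fell by 0.94 ± 0.15 (adjusted p = 0.000151), with 230.5, 188.1 and 218.1 normalized reads in DMSO, 202.8, 180 and 202.2 in TNF-α, 123.1, 99.32 and 108.3 in TSZ, and 166.1, 162.3 and 195.2 in TSZ+Nec-1s. For both genes the TSZ libraries lay apart from those of every other group. With total-read scaling POMP had 0.42 (adjusted p = 0.0644) and PAAF1 -1.36. Of the 6 chaperones listed, 1 rose and 3 fell, beside the same 26% and 24.2% of all genes.

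NFE2L1, the factor that raises proteasome genes when the particle is inhibited, had 0.06 ± 0.10 in TSZ vs DMSO (adjusted p = 0.628), with 2818 to 3478 normalized reads in DMSO and 2974 to 3591 in TSZ. It was at -0.35 on the total-read scale (adjusted p = 0.00226). The 2 remaining subunits of the cap outside the symbol pattern are SEM1, listed under its older symbol SHFM1, and the ubiquitin receptor ADRM1. SEM1 rose by 0.48 ± 0.11 (adjusted p = 0.00226), from 734.7 to 817.7 normalized reads (SHFM1) in DMSO to 970.6 to 1213 in TSZ, a call that total-read scaling ended (0.07, adjusted p = 0.587). ADRM1 had 5241, 3727 and 6078 in DMSO and 3821, 4310 and 4572 in TSZ, at -0.22 ± 0.15 (adjusted p = 0.241), and passed the test as lower on the total-read scale (-0.63, adjusted p = 0.00126).

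In TSZ+Nec-1s vs TSZ, 4 genes of the list were higher and 9 lower, beside 19.8% and 22.7% of all genes. ZFAND5 fell by 1.49 ± 0.18 (adjusted p = 3.07e-05) and AKIRIN2 by 0.99 ± 0.14 (adjusted p = 9.42e-05), while PAAF1 was 0.65 ± 0.15 higher (adjusted p = 0.00334). Under total-read scaling 17 genes of the list were higher and 3 lower in this comparison. The activators PSME1 and PSME2, which form a ring on the core in cells exposed to interferon, stood 0.70 ± 0.13 and 0.55 ± 0.12 higher in TSZ than in DMSO (adjusted p = 0.00054 and 0.00142), and PSME2 was 0.47 ± 0.11 higher in TNF-α (adjusted p = 0.0337). On the total-read scale PSME1 was at 0.28 (adjusted p = 0.0425) and PSME2 at 0.14 (adjusted p = 0.243) in TSZ vs DMSO, and the TNF-α call of PSME2 was lost under the upper quartile (0.46, adjusted p = 0.0745).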

How the data were processed

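Polyadenylated RNA of HT-29 cells was sequenced in 12 libraries. Mapping to hg38 used STAR 2.3.0e, and HTSeq 0.5.4e gave counts per gene, without strand and in strict intersection mode, as the authors describe. Counts were then scaled with DESeq, whose version is not given in the sources used here. The paper and the labels name different extraction reagents and library kits. The deposited signal in the 6 tables, 1 per pair of groups, is a group's average of scaled counts, made by the authors. Further columns hold the mean of both groups, fold change, log2 fold change, p and adjusted p of the authors' comparisons, and were not used.

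Each mean is a sum of 3 whole counts divided by size factors. Genes with few reads show the size of 1 read in each library, and reads per library were solved for 15849 of 15850 (DMSO), 15655 of 15664 (TNF-α), 15780 of 15798 (TSZ) and 15730 of 15733 (TSZ+Nec-1s) genes above 0. Tested on simulated data, all solved genes were right, and size factors recomputed from the reads differed by at most 0.000739 as a relative difference.

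A single limma fit (version 3.58.1, R 4.3.3) with precision weights took the log2 values of 11740 genes whose mean reached 10, in 12 libraries and 4 groups. Adjusted p-values follow Benjamini and Hochberg, with a threshold of 0.05. In simulated TSZ and DMSO counts of 11740 genes it called 25 of 67 genes changed 1.5-fold, 59 of 67 changed 2-fold and 66 of 66 changed 4-fold, with 9 false calls. GC content and length come from MANE Select transcripts of the GENCODE annotation of hg38. Python 3.11.15 was used for other steps. Alternatives covered the scaling, the minimum, the weights, GC content, the groups fitted and each library.

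Values per library were printed by rule for the catalytic subunits, PSMD14 and the members with the highest and lowest TSZ vs DMSO change in each class. From the list of 38, the rule named the 6 genes with the largest changes and NFE2L1, POMP, ADRM1 and SEM1. Other values were printed after they were seen. The members and lists were chosen with earlier results of these data known. The gene left out by the rule for members, and 1 of those 6 genes, are not reported here.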

Additional observations from a re-analysis of the deposited data

How the results depend on the processing

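Counts of members passing the test moved with the settings as follows. Scaled to total reads, higher and lower members were 0 and 16 in TSZ vs DMSO, 0 and 22 in TSZ vs TNF-α, and 20 and 0 in TSZ+Nec-1s vs TSZ, and 5 calls of TSZ vs DMSO reversed: PSMA3 (-0.01), PSMA5 (-0.14), PSMA6 (-0.04), PSMB3 (-0.04) and PSMB6 (-0.07). Scaled to the upper quartile, they were 6 and 4, 0 and 7, and 1 lower member in TSZ+Nec-1s vs TSZ. The median of all genes moved with these scalings, and so did the counts over all genes given beside the results above. For the settings below, counts over all genes are not given, so the members' counts cannot be set against them. With the GC trend removed, 6 members were higher in TNF-α vs DMSO, 18 in TSZ vs DMSO, 9 in TSZ vs TNF-α and 7 in TSZ+Nec-1s vs DMSO, 6 were higher and 8 lower in TSZ+Nec-1s vs TSZ, and 2 were higher and 1 lower in TSZ+Nec-1s vs TNF-α. With only the 2 groups compared, 1 was higher in TNF-α vs DMSO, 5 higher and 1 lower in TSZ vs DMSO, and 6 higher and 8 lower in TSZ+Nec-1s vs TNF-α. With every gene that had a read, 2 were lower in TSZ+Nec-1s vs TSZ. Without DMSO b, TNF-α a and TSZ a, a setting chosen after seeing the data, higher and lower members were 6 and 0 in TNF-α vs DMSO, 17 and 6 in TSZ vs DMSO, 5 and 8 in TSZ vs TNF-α, 10 and 11 in TSZ+Nec-1s vs TSZ, 12 and 6 in TSZ+Nec-1s vs DMSO, and 8 and 15 in TSZ+Nec-1s vs TNF-α. In its comparisons with TSZ+Nec-1s this setting cannot tell a treatment change apart from base composition, since no TSZ+Nec-1s library was left out. The cause of these changes in count was not tested.

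Leaving out each library in turn gave 1 to 3 higher members in TNF-α vs DMSO, 7 to 13 higher and 1 to 6 lower in TSZ vs DMSO, 1 to 2 higher and 3 to 5 lower in TSZ vs TNF-α, 1 to 5 higher and 1 to 7 lower in TSZ+Nec-1s vs TSZ, and 3 to 8 higher in TSZ+Nec-1s vs DMSO. Of 174 repeats of the 29 calls, 134 passed and 40 kept their direction without passing. A minimum of 50 and unweighted log2 values with a pseudocount of 2 kept all 29 calls. No paired analysis was possible because the recovered libraries carry no replicate number. In the simulation, in which few genes were changed, most 1.5-fold changes were missed. In TSZ vs DMSO smaller changes passed, such as PSMA6 at 1.29-fold, so the simulated share does not carry over. An uncalled member is still not shown to be unchanged.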
